A study of Drosophila melanogaster with 3 samples.

Results

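The regions described here are the intergenic summits close to start sites that were bound by Coop-eGFP: peak summits outside every annotated protein-coding gene and more than 500 but at most 5000 bp from the nearest protein-coding transcription start site (TSS). Of 6626 thresholded peaks, 601 (9.07%) met this position rule, which uses the summit coordinate and the annotation and no measured value. Their nearest genes by TSS numbered 448. The material was whole prepupae of Drosophila melanogaster aged 24 h, pooled males and females, from 1 transgenic line that stably expresses Coop (CG1621) with green fluorescent protein at its C-terminal end. The assay was transcription factor ChIP-seq in 3 biological replicates of this single group, and no second condition or untagged strain was analysed here. In the labels each library is described as an input control, but the title, the antibody and the notes are those of ChIP libraries with their own control. Every value below rests on the second reading. All 3 libraries share 1 control alignment, whole animals give no cell type, and what drives the transgene is not stated in the labels. Each peak carries a signal, the score of the authors' peak caller, which ranks peaks within a list and has no physical unit. The files used hold no read counts, and library depth is therefore unknown.

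Coop is a corepressor: it binds Pangolin, the TCF factor of Wingless signalling, and belongs to a family of MADF and BESS domain proteins. Intergenic DNA near genes in flies holds enhancers, silencers, insulators and the promoters of noncoding RNA genes. Insulator proteins such as Suppressor of Hairy-wing, Su(Hw), bind specific sites there and affect which enhancers reach which promoters.

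The strongest summits differed widely in sequence, as the windows around 7 of them show, each reaching 100 bp to either side. The first 6 are those of highest signal that were found in all 3 replicates and lie on an arm whose sequence is printed, and the last is the strongest such summit with the core of the Su(Hw) site. Each is named by its nearest protein-coding gene and read 5′ to 3′ from the release 6 genome (dm6). Capitals mark the Su(Hw) core and 11 words of 6 bases, on either strand, that were more frequent at these summits than in their flanks (described further on). The sequence at CG1142 lies inside a small nuclear RNA gene, has a GC content of 69.2% and holds none of the 11 words. The one at CG31668 has 29.4% GC and 3 of them.
CG1142 (chr3R:7474669-7474869, plus strand): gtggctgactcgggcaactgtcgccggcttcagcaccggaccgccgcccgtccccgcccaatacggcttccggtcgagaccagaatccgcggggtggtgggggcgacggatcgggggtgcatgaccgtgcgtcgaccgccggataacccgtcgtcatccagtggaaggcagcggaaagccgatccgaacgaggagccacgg
CG31668 (chr2L:2202302-2202502, plus strand): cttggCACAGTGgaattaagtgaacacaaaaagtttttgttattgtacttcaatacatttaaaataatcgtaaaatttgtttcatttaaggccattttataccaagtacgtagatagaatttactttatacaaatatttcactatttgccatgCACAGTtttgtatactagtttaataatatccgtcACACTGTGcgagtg
CG43245 (chr3L:10776466-10776666, plus strand): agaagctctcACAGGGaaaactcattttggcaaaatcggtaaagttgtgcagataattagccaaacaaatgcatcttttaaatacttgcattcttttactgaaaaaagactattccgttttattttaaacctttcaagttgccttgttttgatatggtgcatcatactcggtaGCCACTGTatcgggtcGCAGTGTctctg
Act5C (chrX:5896052-5896252, plus strand): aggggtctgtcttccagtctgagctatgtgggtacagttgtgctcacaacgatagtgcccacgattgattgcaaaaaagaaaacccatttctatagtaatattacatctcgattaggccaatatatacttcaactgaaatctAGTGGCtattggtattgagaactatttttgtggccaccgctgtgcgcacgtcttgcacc
Hacd1 (chr2L:12004486-12004686, plus strand): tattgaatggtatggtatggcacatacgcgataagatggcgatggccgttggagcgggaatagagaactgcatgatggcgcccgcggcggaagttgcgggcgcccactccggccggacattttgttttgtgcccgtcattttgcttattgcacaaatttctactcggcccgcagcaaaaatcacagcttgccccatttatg
CG15629 (chr2L:4811755-4811955, plus strand): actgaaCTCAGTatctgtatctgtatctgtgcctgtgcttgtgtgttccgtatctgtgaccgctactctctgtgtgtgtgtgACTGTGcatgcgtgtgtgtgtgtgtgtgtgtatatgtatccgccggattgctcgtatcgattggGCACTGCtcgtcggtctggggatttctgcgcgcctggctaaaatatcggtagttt
CG43131 (chr3R:5113183-5113383, plus strand): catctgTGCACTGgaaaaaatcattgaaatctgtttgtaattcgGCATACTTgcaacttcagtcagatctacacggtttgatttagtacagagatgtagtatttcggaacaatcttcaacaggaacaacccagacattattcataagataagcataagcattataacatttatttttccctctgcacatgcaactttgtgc

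Sites of 1 sequence family recurred at many of the 601 summits. An 8-base word, TACACTGA or TGCACTGA, was assembled from the 6-base words after their values were seen, and it is shown in capitals with 11 bases on each side, on the strand that reads as the word. The 6 sites belong to the 6 summits of highest signal that hold the word, under the same conditions as above.
E(spl)malpha-BFM (chr3R:26009092-26009121, minus strand): caagtctgattTGCACTGAacaaaaagtta
Fbxl7 (chr3R:15919603-15919632, minus strand): tcttacgagaaTACACTGAattaggattca
klu (chr3L:11010536-11010565, minus strand): gcgcacacagaTACACTGAcacctcggcag
CG4218 (chr2L:14552261-14552290, plus strand): gggctctgagcTGCACTGAaagaaatattt
CG5953 (chr2L:16535862-16535891, plus strand): gataaatggctTACACTGAacaaattagat
Cpr72Ea (chr3L:16361302-16361331, minus strand): accttatagtaTACACTGAagatatatact

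Su(Hw) core sites (GCATACTT, in capitals, on the strand that reads as the motif) are shown with 11 bases on each side. They are those of the 5 summits that hold it under the same conditions. The letters around the core differ from site to site, though tt comes just before it at CG15625, CG7065 and Dyrk2.
CG43131 (chr3R:5113216-5113245, plus strand): tttgtaattcgGCATACTTgcaacttcagt
CG15625 (chr2L:4887493-4887522, minus strand): agatctcagttGCATACTTttttctctgtg
CG7065 (chrX:9141418-9141447, minus strand): cgtatatgcttGCATACTTctactgagcac
CG33795 (chr3L:16173031-16173060, plus strand): ttaatattgtaGCATACTTtttcacatcgt
Dyrk2 (chr2L:14236243-14236272, minus strand): agcaacgagttGCATACTTctttaaacatt

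The highest signal among the 601 summits was 3587, at 3R 7474769, 988 bp upstream of CG1142, and this summit ranked 15 among all thresholded peaks. It ranked 10 in replicate 1, 48 in replicate 2 and 13 in replicate 3. The position is inside snRNA:7SKa (3R 7474553 to 7474996), the gene for 7SK RNA, which is known to hold the elongation factor P-TEFb inactive. The summit nearest to CG31668 (2L 2202402, signal 2686) ranked 109, 20 and 45 in replicates 1, 2 and 3. The summit nearest to l(2)k09913 (2R 23072473, signal 2494) ranked 29, 124 and 32, and lies 108 bp and 373 bp from the starts of a pair of serine tRNA genes. A total of 8 of the 601 summits were among the 100 strongest thresholded peaks, and 320 were in the stronger 3313. The best rank of any of the 601 was 10 in replicate 1, 20 in replicate 2 and 13 in replicate 3.

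Act5C, which encodes a cytoplasmic actin, was the nearest gene of 2 of the 20 strongest summits found in all 3 replicates. The farther one lies 4709 bp upstream (X 5896152, signal 2249), with ranks of 48, 64 and 74. The nearer one lies 677 bp upstream (X 5900184, signal 1814), with ranks of 91, 79 and 206. The noncoding gene lncRNA:CR45668 covers the first of them and starts 195 bp from the second. Hacd1, a gene of very-long-chain fatty acid synthesis, had a summit 2320 bp upstream with a signal of 1969 and ranks of 69, 168 and 62. The summit 575 bp upstream of ds, the gene of the cadherin Dachsous, had a signal of 1546 and ranks of 265, 95 and 192. The other named summits had signals from 1268 to 2410 and lay nearest to CG43245, CG15629, Ntf-2r, Gbs-70E (a glycogen-targeting subunit of protein phosphatase 1), CG17896, tara, CG43131, CG6163, CG13898, CG43389, nw, NimC3 and CG3149. No replicate was the lowest throughout: the summit at CG3149 ranked 122, 581 and 257, and that at Ntf-2r ranked 38, 203 and 254.

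**Figure D1:**
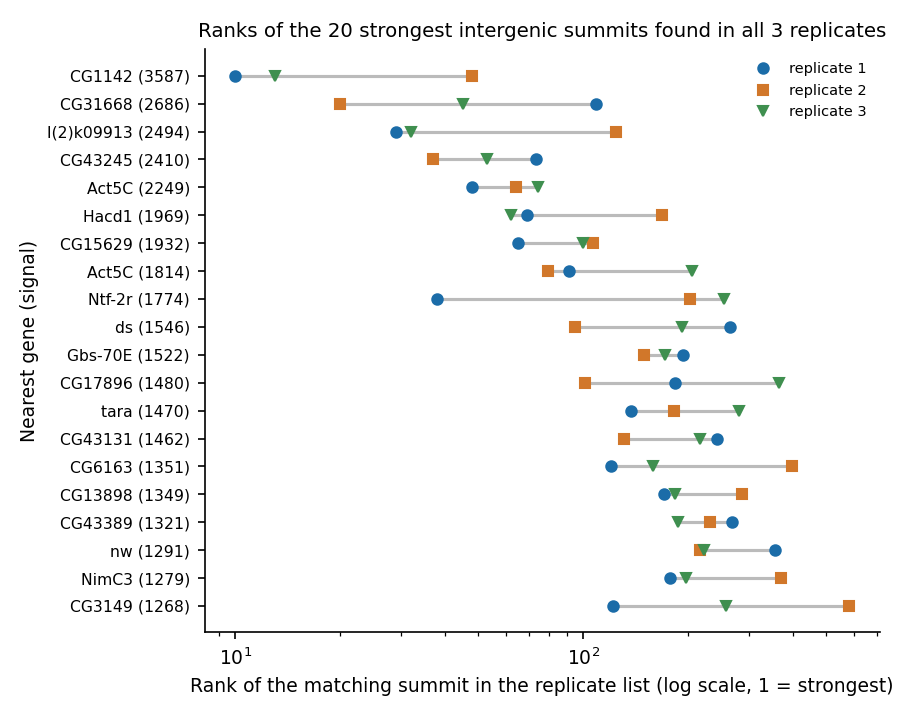
Ranks of the 20 intergenic summits of highest signal that were found in all 3 replicates, named by nearest gene with the signal in brackets. Each symbol is the rank of the matching summit in 1 replicate list on a log scale, and the line joins the best and the worst rank. The ranks run from 10 at CG1142 in replicate 1 to 581 at CG3149 in replicate 2.

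The 601 summits were more densely placed upstream of genes than downstream. Over the 14.2 Mb of sequence on the arms with peaks that meets the same position rule, the density was 42.5 summits per Mb, against 175 per Mb within 500 bp of a TSS and 23.9 per Mb in intergenic sequence beyond 5000 bp. The same class in the 6626 strongest regions of each replicate held 529, 613 and 662 summits in replicates 1, 2 and 3, a share of 9.08% ± 1.02 and a density of 42.5 ± 4.75 per Mb (SD, n = 3). Upstream of the nearest TSS lay 463 summits (77.0%, exact 95% binomial interval 73.5% to 80.3%) and downstream 138, while 69.5% of the eligible bases are upstream. The density upstream was 1.48 times that downstream, and 1.48, 1.45 and 1.48 times in the 3 replicates (mean 1.47 ± 0.0199, SD). All 3 replicates thus had the same order. Peaks are not independent replicates, and such intervals cover counting error only.

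The difference between the sides was widest close to the TSS. Up to 1000 bp upstream the replicate mean was 55.8 ± 3.88 summits per Mb, and from there to 2000 bp it was 54.6 ± 7.37 (SD, n = 3). It was 41.4 ± 5.54 from 2000 to 3000 bp and 37.3 ± 5.98 from 4000 to 5000 bp. Downstream, the nearest bin had 16.1 ± 5.69 per Mb over only 0.268 Mb of eligible sequence with 4 thresholded summits, and the bins beyond 1000 bp had means from 31.4 to 34.7. Beyond 2000 bp the ranges of the sides over replicates overlapped, but each replicate had the higher density upstream in every bin. From 4000 to 5000 bp it was 30.7, 38.7 and 42.4 upstream and 24.6, 35.3 and 37.4 downstream in replicates 1, 2 and 3. In the thresholded list the density in that bin was 35.1 per Mb upstream and 35.3 downstream, so the excess was absent there. The median distance of the 601 summits from the TSS was 1958 bp.

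**Figure D2:**
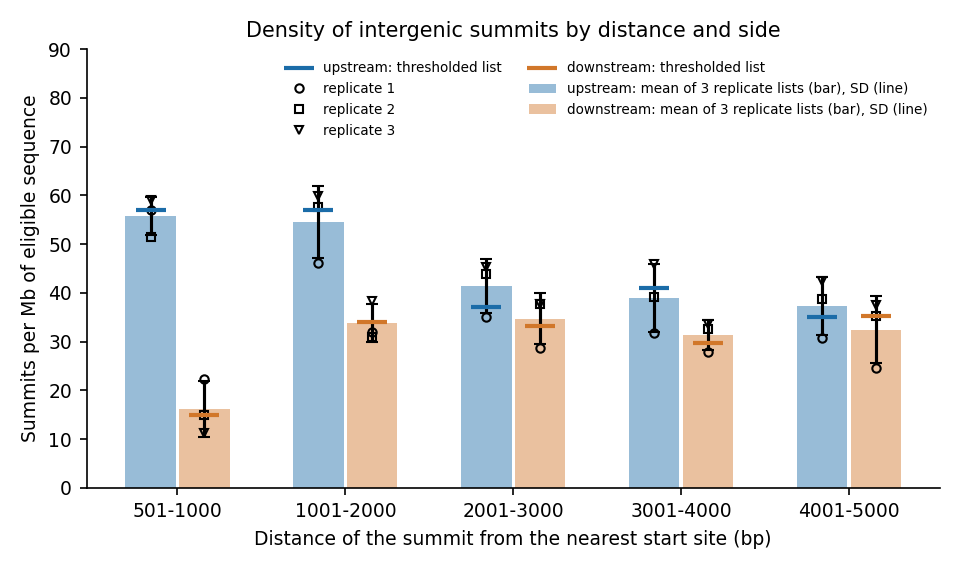
Summits per Mb of eligible intergenic sequence by distance from the nearest start site, upstream in blue and downstream in orange. Bars are means of the 3 replicate lists, lines are SD, open symbols are single replicates and short horizontal marks are the thresholded list. Upstream values within 2000 bp lie above all downstream values of the same bins.

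By the orientation of the flanking protein-coding genes, gaps between divergent genes held 219 of the summits, at 49.8 per Mb. Gaps between genes in tandem held 296, at 39.9 per Mb, and gaps between convergent genes held 86, at 37.4 per Mb. Divergent gaps had the highest value in each replicate list, with 51.5 ± 4.81 per Mb against 39.3 ± 4.93 in tandem and 36.2 ± 4.65 in convergent gaps (SD, n = 3). A divergent gap lies upstream of both flanking genes and a convergent gap downstream of both. This order is therefore not separate from the difference between the sides. The median gap around a summit measured 8042 bp. By arm, 157 summits were on 3L (54.1 per Mb of eligible sequence), 135 on 2L (46.8), 131 on 3R (37.7), 93 on 2R (36.1) and 85 on X (38.6). Chromosome 4, with 0.112 Mb of eligible sequence, held none.

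The number of summits differed between gaps. Another thresholded summit of any class lay within 1000 bp of 30.1% of the 601 and of 25.1% of all thresholded summits, and within 5000 bp of 72.7% and 69.1%. The 601 fell in 418 gaps, of which 302 held 1 of them, 80 held 2 and 36 held 3 or more, together 139 summits. The gap with the most, 7, is the 20400 bp between mtSSB, which encodes the mitochondrial single-stranded DNA-binding protein, and tara, a gene with roles in the cell cycle and homeotic regulation. In it 4 summits were nearest to tara, and 2 of them, with signals of 1470 and 1250 at 3166 and 1126 bp upstream, were found in all 3 replicates. The others had 215 at 2140 bp (found in 1 replicate) and 182 at 1894 bp (found in 2). The strongest nearest to mtSSB had 788 at 3084 bp. The 5808 bp between COX7AL2 and CG31668 held 6, of which 5 were found in all 3 replicates, and the 26487 bp between CG33795 and CG33687 held another 6. Gaps with 5 lay between Hacd1 and the opsin gene Rh5, between Psc (a Polycomb-group gene) and CG33798, between CG7557 and CG12289, and between chm and muc. None of the 5 between chm and muc was found in all 3 replicates, and their signals ran from 248 to 315. By gene, 97 genes were nearest to several summits, covering 250 of the 601, so summits that share a gene are not independent of each other. Rh5, CG6168, CG7557 and muc each had 5.

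A thresholded summit was called found in a replicate when that replicate had a summit within 100 bp among its 6626 strongest regions. All 3 replicates had 281 of the 601 summits (46.8%), against 48.0% of all thresholded peaks, while 233 were found in 2, 80 in 1 and 7 in none. In a logistic fit over all 6626 peaks the odds of being found in all 3 did not differ past the threshold (adjusted p under 0.05) from promoter peaks (odds ratio 0.943, 95% interval 0.790 to 1.13, adjusted p = 0.616, n = 6626 peaks). The odds ratio was 0.885 (0.733 to 1.07, adjusted p = 0.616) against intronic peaks in the same distance range and 1.06 (0.846 to 1.33, adjusted p = 0.616) against intergenic peaks beyond 5000 bp (n = 6626 peaks). The result for promoters turned on single libraries. Without replicate 1 the odds ratio for being found in both others was 1.76 (adjusted p = 4.19e-08), and without replicate 3 it was 0.656 (adjusted p = 1.11e-05, n = 6626 peaks in both). Without replicate 3 the odds were also lower than at near intronic peaks (0.797, adjusted p = 0.0289, n = 6626 peaks).

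Replicate 1 stood apart from the other two. Of the 601 summits it had 379 (63.1%), while replicates 2 and 3 each had 505 (84.0%). The shares of all thresholded peaks were 69.5% in replicate 1, 82.3% in replicate 2 and 78.1% in replicate 3. Taken singly, a measure chosen after the values were seen, the odds of being found relative to promoter peaks were 0.502 in replicate 1 (95% interval 0.416 to 0.607, adjusted p = 7.68e-12 over 9 contrasts, n = 6626 peaks). They were 1.35 in replicate 2 (1.07 to 1.72, adjusted p = 0.0369) and 2.04 in replicate 3 (1.61 to 2.57, adjusted p = 1.13e-08, n = 6626 peaks). A total of 154 summits were lost in replicate 1 alone, 41 in replicate 2 alone and 38 in replicate 3 alone. The list of replicate 1 also held the highest share of promoter summits, 48.8%, against 39.0% and 37.3%, and its part in these differences was not tested. Across 544 of the 601 summits matched in replicates 2 and 3, which like all pairs share the control alignment, Spearman's rho of the ranks was 0.749. It was 0.499 across 512 summits matched in replicates 1 and 2 and 0.557 across 511 matched in 1 and 3. Over all matched thresholded peaks rho was close to these values, 0.739 for replicates 2 and 3, 0.524 for 1 and 2 and 0.561 for 1 and 3.

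**Figure D3:**
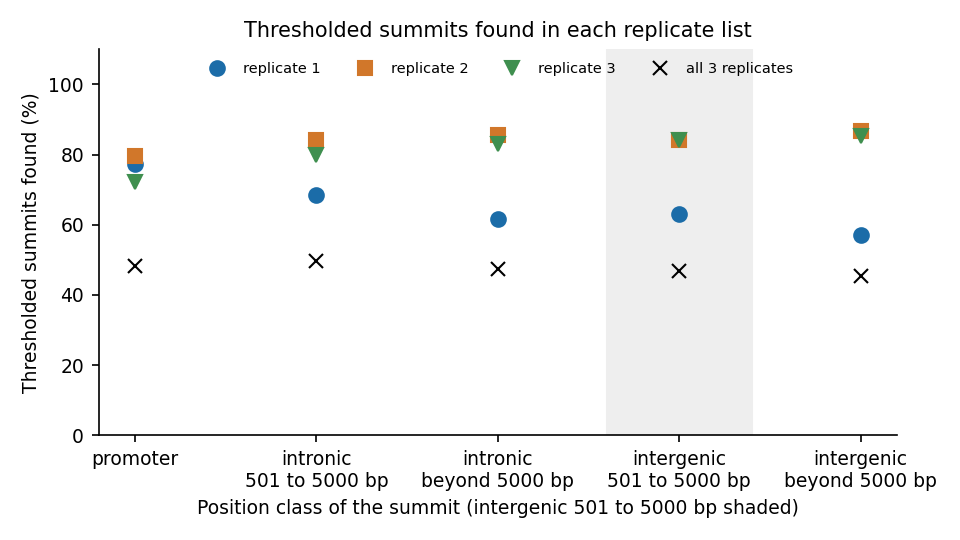
Share of thresholded summits in each position class with a matching summit among the 6626 strongest regions of each replicate (colours) and of all 3 (crosses), in percent. Replicate 1 has 77.3% of promoter summits and 63.1% of the 601 intergenic summits (shaded), while replicate 3 has 72.1% and 84.0%.

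Stronger summits were found in all 3 replicates more often. Among the weakest 1657 of all thresholded peaks, with signals from 171 to 217, 7 of 156 of these summits (4.49%) were found in all 3 replicates. Among the strongest 1657, with signals from 454, it was 135 of 157 (86.0%). Over all thresholded peaks the shares were 3.62% and 90.4%, a rise of the same kind. The signal was derived from the same 3 replicates, and found means a place among the strongest regions of each. Part of this rise is therefore by construction. The median signal of the 601 was 300, with quartiles of 215 and 464. In a linear fit over all peaks, log2 signal was 0.12 higher than at intergenic summits beyond 5000 bp (95% interval 0.03 to 0.22, adjusted p = 0.0310, n = 6626 peaks). This difference no longer passed among peaks found in all 3 replicates (0.15, adjusted p = 0.112, n = 3178 peaks) or in the stronger 3313 (0.06, adjusted p = 0.327, n = 3313 peaks). Against promoter summits it was -0.07 (-0.15 to 0.00, adjusted p = 0.0895, n = 6626 peaks). Among the 4404 peaks found in replicates 2 and 3, an alternative chosen after seeing the data, it was -0.22 (adjusted p = 3.57e-06, n = 4404 peaks).

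The sequence under these summits was poorer in GC than that under promoter summits. The windows had a mean GC content of 40.1%, against 43.2% at promoter summits, a difference of -3.05 percentage points (95% interval -3.85 to -2.25, adjusted p = 2.34e-13, linear fit, n = 6626 peaks). With 200 bp to each side the difference was -0.625 points (adjusted p = 0.0825, n = 6626 peaks). Against intronic summits in the same distance range the difference was 0.242 points (-0.610 to 1.09, adjusted p = 0.578), and against intergenic summits beyond 5000 bp it was 0.963 points (-0.0490 to 1.97, adjusted p = 0.0933, n = 6626 peaks). In the flank centred 500 bp away from the summit and from the TSS, the mean was 41.1%. The summit had the higher GC content in 256 of the 601 pairs. Between summit and flank the profile was not flat, with a mean GC content of 45.7% at 150 bp to either side of the summit.

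A family of words around CACTG was more frequent at the summits than in these flanks. All words of 6 bases, each merged with its reverse complement, were counted in equal windows at the summit and in the far flank, with exact McNemar tests adjusted over all words. A total of 11 words (0.529%) were higher at the summit and 5 (0.240%) lower. By odds ratio, which divides the summits that hold the word where their flank lacks it by the reverse cases, the first was ACTGAG, at 12.8% of summits and 3.99% of flanks (3.52, exact McNemar test, adjusted p = 2.21e-05). ACACTG was at 18.8% and 6.66% (3.35, adjusted p = 4.28e-07), ACAGTG at 18.6% and 6.82% (3.15, adjusted p = 6.46e-07) and AGTGTA at 18.8% and 6.82% (3.12, exact McNemar test, adjusted p = 6.46e-07). ACAGGG (3.15), CACTGA (2.37), CAGTGC (2.26), ACTGTG (2.18), AGTGCA (2.16), AGTGGC (2.11) and CACTGC (2.03) had adjusted p from 0.000572 to 0.0412 in the same exact test. Only 5 of the 11 words hold CACTG or its reverse complement, and 10 hold at least 4 successive bases of either, ACAGGG being the exception. Words that overlap in sequence are often counted in the same windows, so the 11 are not separate findings. At least 1 of them was at 428 summits (71.2%) and in 277 flanks (46.1%). Such a word was also at 65.3% of all thresholded summits, 62.2% of promoter summits, 65.8% of near intronic summits and 71.0% of intergenic summits beyond 5000 bp, and since the words were chosen for their excess over the flanks, none of these shares was tested. The lower words CCAGCG (odds ratio 0.387), GGCCCA (0.392), CGCCAG (0.410), ATTGCG (0.433) and GCCAGC (0.505) had adjusted p from 0.0132 to 0.0412 in the exact test. With 50 bp to each side no word passed in either direction, and with 200 bp 28 were higher and 8 lower.

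Bases beside the word CACTGA were uneven at the summits. The word occurred 115 times in the summit windows and 52 times in the far flanks. Counting from its first base as position 0, T stood at position -2 in 61.7% of occurrences at summits and 30.8% in flanks, and A stood at position 10 in 77.4% and 30.8%. A stood at position 9 in 67.8% and 34.6%. The base just before the word was A or G in 47.8% and 37.4% of summit occurrences. These shares describe occurrences that were picked for the word and were not tested.

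The 8-base word TACACTGA or TGCACTGA, shown above at 6 summits, was at 61 of the 601 summits (10.1%), in 10 far flanks (1.66%) and in 10 flanks on the TSS side. Of 67540 windows of the same length tiled over the eligible sequence 1.63% held it, and 6.08% of all thresholded summits did. In the replicate lists its share at summits of this class was 6.43%, 10.1% and 7.70% in replicates 1, 2 and 3, and its share in far flanks 1.70%, 1.63% and 2.11%, so all 3 replicates were higher at the summit. The share was 2.57% at promoter summits, 6.82% at intronic summits in the same distance range and 12.3% at intergenic summits beyond 5000 bp. Since the word was built from values seen here, none of these differences was tested. Its matches lay beside the summit more than on it, with 23 centred within 49 bp, 43 from 50 to 99 bp and 19 from 100 to 149 bp. The median signal of the 61 summits was 331, against 297 for the other 540, and 29 of the 61 were found in all 3 replicates. The strongest of them lies 1806 bp upstream of E(spl)malpha-BFM, a Bearded-family gene of the Notch response, at 3R 26009087 with a signal of 1246 and ranks of 717, 191 and 235. Among those found in all 3 replicates and outside arm 2R, the next lie upstream of the F-box gene Fbxl7 (1140) and the zinc-finger gene klu (966). Another of the 6 shown lies upstream of the cuticle gene Cpr72Ea (844).

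Of 28 known motifs, the core of the Su(Hw) site was the only one higher at the summits than in the far flanks (1 of 28, 3.57%), and 0 were lower, with 2 lower at an unadjusted p under 0.05 in the exact McNemar test, the E-box CAGCTG and the Stat92E site. It was at 21 summits (3.49%) and in 4 flanks (0.666%), with 20 windows against 3 that held it on 1 side alone (odds ratio 6.67, exact McNemar test, adjusted p = 0.0137 over 28 motifs). The shares at summits were 2.46%, 2.94% and 3.47% in replicates 1, 2 and 3, and those in flanks 0.945%, 0.326% and 0.755%, so all 3 were higher at the summit. Of the tiled eligible windows 1.16% held it, and of all thresholded summits 1.30%. The call was lost with the flank on the TSS side (21 against 5 windows, exact McNemar test, adjusted p = 0.0698) and among peaks found in all 3 replicates (9 against 2, adjusted p = 0.611). It was also lost among peaks found in replicates 2 and 3 (14 against 2, exact test, adjusted p = 0.117, chosen after seeing the data), and over 11 alternatives the adjusted p ran from 0.00214 to 0.611. With 200 bp to each side it was also lost (26 against 11, exact test, adjusted p = 0.187), and the GAGA repeat passed in its place (67 against 31, adjusted p = 0.00993). Matches were centred within 49 bp of the summit 15 times and from 50 to 99 bp 7 times. The strongest of the 21 summits lies 4105 bp upstream of CG43131 at 3R 5113283, with a signal of 1463 and ranks of 242, 131 and 217. Among those found in all 3 replicates and outside arm 2R, the next, near CG15625, had 511. Of the 21, 9 were found in all 3 replicates.

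**Figure D4:**
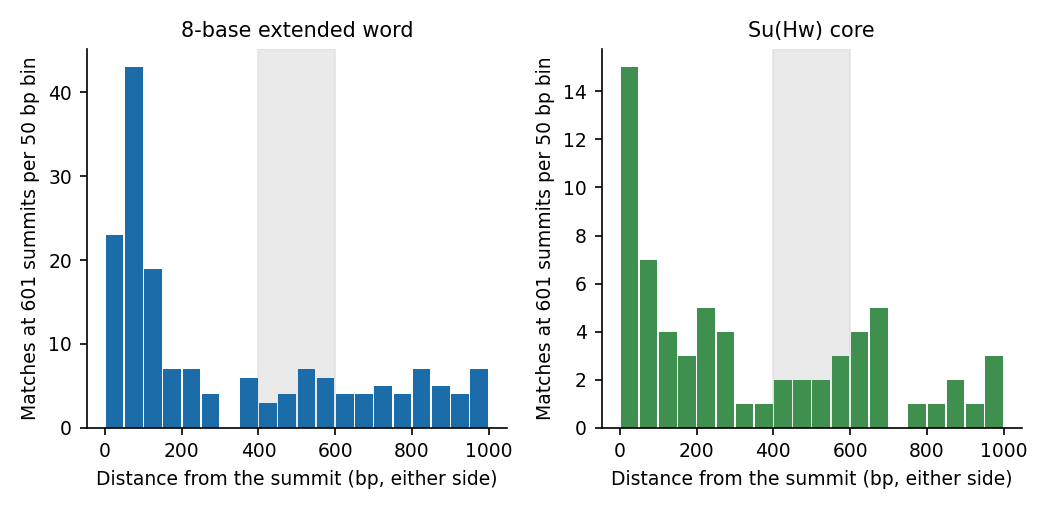
Matches of the 8-base extended word (left) and of the Su(Hw) core (right) per 50 bp bin of distance from the 601 summits, both sides summed. The grey band is the range of the flank windows. The first 3 bins hold 23, 43 and 19 matches of the word, and 15, 7 and 4 of the Su(Hw) core.

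Motif shares also differed between these summits and promoter or near intronic summits. In logistic fits over all peaks 7 of 68 testable contrasts (10.3%) passed, adjusted over all of them. The Su(Hw) core was more frequent than at promoter summits (3.49% against 0.895%, odds ratio 4.01, 95% interval 2.22 to 7.25, adjusted p = 9.80e-05, n = 6626 peaks) and than at intronic summits in the same distance range (1.25%, odds ratio 2.87, 1.53 to 5.37, adjusted p = 0.0137). Against intergenic summits beyond 5000 bp its contrast did not pass (1.45%, logistic fit, odds ratio 2.46, adjusted p = 0.119, n = 6626 peaks). The contrast of the Su(Hw) core with promoters did not pass in 2 of 9 alternatives, with adjusted p up to 0.113 (n = 3313 peaks). That with intronic summits did not pass in 4 of 9, with adjusted p up to 0.648 (n = 3178 peaks). Some of the other motifs were rarer than at promoter summits: the E-box CAGCTG (4.49% against 13.0%, odds ratio 0.314, adjusted p = 1.06e-06), Ohler motif 7 (1.33% against 7.27%, 0.172, adjusted p = 4.44e-05), the GAGA repeat (4.83% against 9.06%, 0.509, adjusted p = 0.0137) and the Pan helper site (1.16% against 3.84%, 0.295, adjusted p = 0.0217, n = 6626 peaks). In the alternatives, the E-box contrast with promoters passed in all 9, that of Ohler motif 7 failed in 1 of 8 (adjusted p up to 0.0513), that of the GAGA repeat in 4 of 9 (up to 0.148) and that of the Pan helper site in 2 of 5 (up to 0.121). The E-box was also rarer than at intronic summits (8.20%, odds ratio 0.526, adjusted p = 0.0315, n = 6626 peaks), a call lost in 7 of 9 alternatives, with adjusted p up to 0.276.

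The site of Pangolin itself, CTTTGAT, was at 16 summits (2.66%) and in 24 flanks (3.99%, exact McNemar test, adjusted p = 0.751). The Su(H) site of Notch signalling was at 42 summits (6.99%) and in 26 flanks (4.33%, adjusted p = 0.336), and the Stat92E site at 27 and 50 (4.49% and 8.32%, exact test, adjusted p = 0.134). None of these passed. The motifs were searched on both strands as exact letters: DRE TATCGATA, Motif 1 GGTCACACT, the GAGA repeat GAGAGAG, the E-box CAGCTG, the E-box CACGTG, Pan site CTTTGAT, the Pan helper site GCCGCCG, the Su(H) site GTGGGAA or GTGAGAA, Zelda CAGGTAG, Stat92E TTCNNNGAA, AP-1 TGACTCA, the Su(Hw) core GCATACTT, the CTCF core AGGTGGCGC and the TATA box TATAAA. The others were AAAAAAAA, CACACACA, the GATA-factor site AGATAA, Grainyhead AACNGGTT, homeodomain TAATTA, forkhead TGTTTAC, Ftz-f1 CAAGGTC, ETS CCGGAAG, heat shock element GAANNTTC, Pho GCCATNTT and Brinker GGCGCC, with Ohler motifs 6 and 7 and the ecdysone receptor palindrome by name. Letters missing from these windows say nothing about a factor.

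Noncoding RNA genes were frequent at the summits, although the position rule uses protein-coding genes only. A summit was counted when it lay inside a gene of another class, transposable elements left out, or within 500 bp of its start. This held for 133 of the 601 (22.1%), for 8.60% of all thresholded summits, most of which lie in or at coding genes, and for 10.7% of the eligible bases. In the replicate lists the share was 21.0%, 22.5% and 20.4%, a mean of 21.3% ± 1.09 (SD, n = 3), above the share of eligible bases in all 3. Long noncoding and antisense RNA genes accounted for most: 87 summits (14.5%, exact 95% binomial interval 11.8% to 17.5%) lay inside one, while genes of the annotated ncRNA class, to which they belong, cover 6.81% of eligible bases. Annotated transposable elements cover 6.08% of eligible bases and contained 2 summits (0.333%, interval 0.0403% to 1.20%). Of all thresholded summits they contained 10 (0.151%), so the low share is not particular to this class. The treatment of repeats by the authors is not stated in the labels. The 133 had a median signal of 314, against 298 for the rest.

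**Figure D5:**
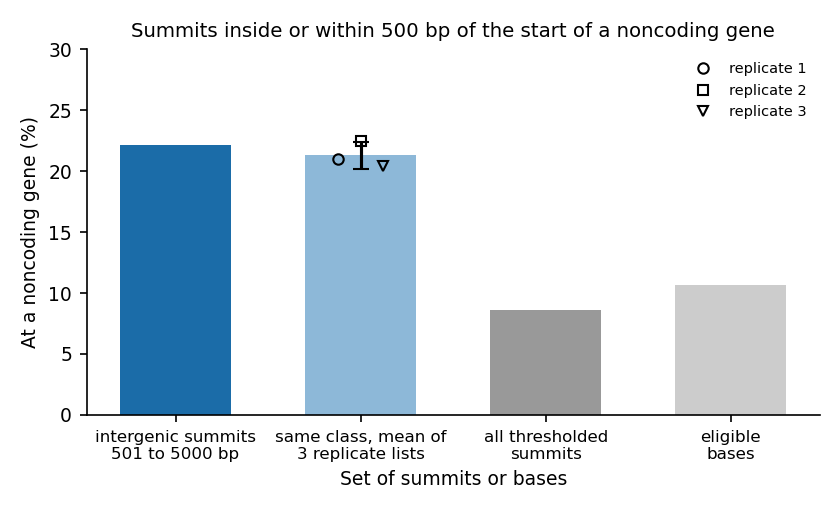
Percentage of summits, or of bases, inside a noncoding gene or within 500 bp of its start. The 601 intergenic summits are at 22.1%, the mean of the 3 replicate lists is 21.3% (SD 1.09, symbols are replicates), all thresholded summits are at 8.60% and eligible bases at 10.7%.

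Of the 20 named summits, 8 were at such genes. Besides snRNA:7SKa and the serine tRNA genes, the summit at 2L 18456269 (signal 1774) lies 552 bp inside lncRNA:let7C, the precursor of a cluster of microRNAs that rise with ecdysone at metamorphosis. The summit at CG15629 lies inside lncRNA:CR45297, 90 bp from its start, with a signal of 1932 and ranks of 65, 107 and 100. Those at CG6163 (1351) and NimC3 (1279) lie inside lncRNA:CR45036 and lncRNA:CR45352. Farther down, a summit 215 bp from the start of tRNA:Ala-TGC-2-1 had a signal of 997, one 9 bp from the start of snoRNA:Psi18S-176 had 924, and one beside lncRNA:CR44742 and inside lncRNA:CR44743, upstream of the clock gene vri, had 987. In all, 6 tRNA genes, 3 snoRNA genes, 3 microRNA genes and 111 long noncoding or antisense genes were involved. Reads from closely similar copies, such as tRNA genes, can be misplaced between them, and how the authors handled such reads is not stated in the labels.

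A second summit at the promoter of the nearest gene was present for 190 of the 601 (31.6%), against 60.7% of intronic summits in the same distance range and 30.2% of intergenic summits beyond 5000 bp. By gene it was 138 of 448 (30.8%), beside 21.1% of all protein-coding genes. In the replicate lists the share of summits was 42.0% in replicate 1, 31.3% in replicate 2 and 31.4% in replicate 3, a mean of 34.9% ± 6.12 (SD, n = 3). Among peaks found in all 3 replicates it was 22.1%. There the promoter summits were cut to the same peaks, so part of the drop is by construction. The share of all protein-coding genes was not recounted for that setting. Act5C, tara and CG1142 had such a promoter summit, and CG31668, Hacd1 and ds had none.

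The 448 genes are 3.21% of all protein-coding genes. The counts below stand beside that share with no test, and the length of intergenic sequence around each gene was not taken into account. Over 9 alternatives, which also changed the distance limits and the peaks kept, the genes counted ran from 5 to 10 for Notch signalling, from 3 to 9 for Wingless targets, from 3 to 6 for the Wnt pathway and from 2 to 5 for ecdysone regulators. They ran from 3 to 10 for ligands, from 2 to 5 for cuticle genes and from 3 to 7 for chemoreceptors. For patterning factors they ran from 3, among peaks found in all 3 replicates, to 20, with the outer limit at 10000 bp. Among 31 genes of Notch signalling, those of the E(spl) complex included, 8 (25.8%) were nearest to 12 of the summits. In the E(spl) complex on 3R, 7 summits for 6 genes lay within 19007 bp, from 26001412 to 26020419. Of these, 6 were nearest to 5 E(spl) genes and 1 (signal 288) to Kaz-m1, a gene not on the list, and 4 were found in all 3 replicates. After E(spl)malpha-BFM the strongest summit of the list lies 722 bp upstream of fng, the glycosyltransferase gene that modifies Notch (signal 901, ranks 1162, 365 and 409), a gene with 4 summits. E(spl)m2-BFM had 487, with no summit in replicate 1 within 100 bp, and E(spl)mbeta-HLH had 415.

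Of 33 Wingless target genes, 8 (24.2%) were nearest to 11 summits. The homeobox gene ct had the strongest, 3751 bp upstream, with a signal of 1110 and ranks of 334, 343 and 464. The glypican gene dally had 607 with ranks of 711, 1151 and 1069 and was nearest to 3 summits, the BMP ligand gene dpp had 503, and Dad, an inhibitor of Dpp signalling, had 488. The summit at dpp ranked 1943, 1048 and 2134, and that at Dad 7368, 1152 and 1191. Of 33 genes of the Wnt pathway, 5 (15.2%) were nearest to 7 summits, including those of nej, the CREB-binding protein (863), and fz, a Wingless receptor (825). Of these 5 genes, dally and Notum were also counted among the Wingless targets, so the counts of the lists are not separate. The fz summit ranked 407 and 322 in replicates 2 and 3 and 9937 in replicate 1. Coop is on this list: a summit 759 bp upstream of it (2R 7493348, signal 1003, ranks 373, 533 and 304) lies inside asRNA:CR43723. At this locus, binding and an effect of the tagged transgene cannot be told apart.

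Of 30 regulators of the ecdysone response, 5 (16.7%) were nearest to 6 summits: the nuclear receptor gene Hr38 (572), Eip63E (391), Eip93F (225), Kr-h1 (217) and Eip78C (210). The strongest summits of the first 3 of these genes were found in all 3 replicates. In insulin signalling 3 of 24 genes (12.5%) had a summit, each found in all 3 replicates, namely the transcription factor gene foxo (766, ranks 751, 697 and 727), the receptor gene InR (752, ranks 232, 1735 and 881) and the kinase gene Pdk1 (561, ranks 724, 1580 and 1492). Of 43 signalling ligand genes 6 (13.95%) had one, with ds (1546), dpp (503), daw (361) and hh (236) first, and of 86 patterning factor genes 9 (10.5%), with ct (1110), srp (360), croc (353) and slp2 (331) first. Of 22 cell death genes 3 (13.6%) had one: scyl (372), chrb (369) and hid (228), and none of their summits was found in all 3 replicates.

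Structural and sensory gene families lay nearer the background share. Of 121 cuticle protein genes 5 (4.13%) had such a summit, led by the neighbours Cpr72Ea (844) and Cpr72Eb (614), then Cpr51A (369) and Cpr12A (180), whereas 3 cuticle genes (2.48%) had a promoter summit. Of 179 chemoreceptor genes 7 (3.91%) had one, with Gr93d (493), Gr89a (337), Gr93a (332) and Or45b (253) first, and 1 had a promoter summit. Cytosolic ribosomal protein genes had 2 of 92 (2.17%), RpLP0 (292) and RpL17 (181), beside promoter summits at 64. For steroid synthesis and transport, 2 of 17 (11.8%) had one, shd (292) and phtm, the phantom gene (198, found in replicates 2 and 3 only), and for antimicrobial and recognition genes 2 of 27, PGRP-SA (354) and dl (242). None of the 8 Hox genes or 13 JAK/STAT genes on the lists was the nearest gene of such a summit. The same held for the 25 heat shock and chaperone genes and the 22 glue or late larval puff genes. The lists do not hold every member of these families: Hsp60B, a chaperonin gene named after its values were seen and absent from the list, had one with a signal of 272. Gaps beside the Hox genes Ubx and Abd-B did hold such summits, each nearest by TSS to another gene. Their signals were 319 and 226 beside Ubx and 187 beside Abd-B, and the one of 319 was found in all 3 replicates.

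Summits near the limits show how the rule divides the peaks. The summits at nw (1 bp beyond the limit, signal 390), CG5966 (503 bp, 249), CG43401 (507 bp, 519) and scrib (507 bp, 177) fell just inside the inner limit, and those at ft (491 bp, 493) and prtp (493 bp, 531) just outside. At the outer limit, CG8117 (176) and Naa15-16 (470), both at 4992 bp, fell inside.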

How the data were processed

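Per the deposited notes, the authors derived each replicate's peak list from its alignment and 1 shared control alignment on dm6, and a thresholded list of 6626 peaks from the replicates together. Neither the peak caller and its version nor the reproducibility threshold is given in the sources used here. The deposited signal is a score of the authors' peak caller. The deposited −log10 q values are capped at 4.19 and were not used. Replicate lists were reduced to their 6626 regions of highest signal.

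Positions were classed with the Ensembl release 115 annotation (13968 protein-coding genes, 19275 start sites), and sequence was read from the release 6 genome. None of the 601 summits lies in a RefSeq protein-coding gene. Class contrasts were logistic or linear fits over all peaks (statsmodels 0.14.6, Wald tests), and motif and word contrasts were exact McNemar tests (scipy 1.17.1), two-sided, adjusted by the Benjamini-Hochberg method with a threshold of 0.05. No contrast was tested where a class had under 5 peaks with the motif. The tests were checked on simulated data. Genes are named for the 20 summits of highest signal found in all 3 replicates and up to 4 per list, motifs past the threshold and up to 10 words by odds ratio, and other named items were chosen after their values were seen. The members, lists and motifs were chosen with earlier results of these data known, and list entries with outdated symbols were brought to those of the annotation. Precision rests on 3 replicates, and the depth per library is unknown. Alternatives changed the distance limits, gene bodies, list threshold, match distance, windows, flank side, covariates, nearest-gene rule and replicates.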

Additional observations from a re-analysis of the deposited data

How the results depend on the processing

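No paired analysis was possible because the samples form 1 group. Since alternatives that change the position rule change which summits are counted, and thinner lists hold fewer summits, part of such a move is by construction. The cause of the others was not tested. The share of summits in the class was 10.9% and 7.29% with the inner limit at 250 and 1000 bp, 6.37% and 13.3% with an outer limit of 3000 and 10000 bp, and 7.68% outside all annotated genes. The density was 22.6 per Mb for the stronger 3313 peaks, and the upstream to downstream ratio 1.61 outside all annotated genes. Leaving out each replicate gave a mean share from 8.62% to 9.62%, a density from 40.3 to 45.0 per Mb and a ratio from 1.46 to 1.48.

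The odds ratio of being found in all replicates ran from 0.656 to 1.76 against promoters and from 0.797 to 1.16 against near intronic summits as each replicate was left out. The other 9 alternatives left both contrasts short of the threshold, as did all 12 for intergenic summits beyond 5000 bp. The log2 signal difference from these was 0.12 with the inner limit at 1000 bp, 0.11 with the outer limit at 3000 bp, 0.060 in the stronger 3313 and 0.15 among those found in all 3, none past the threshold. From promoters it was -0.10 with the outer limit at 10000 bp, -0.13 in the stronger 3313 and -0.22 among peaks found in replicates 2 and 3, all past it. The GC difference from promoters was -0.625 points with 200 bp to each side, no longer past it. From intergenic summits beyond 5000 bp it was 1.24 points with the outer limit at 3000 bp and 1.87 points with 50 bp to each side, both past it, but -0.279 points with 200 bp (adjusted p = 0.438, n = 6626 peaks).

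The count of motifs higher at summits was 0 with the outer limit at 3000 bp, in the stronger 3313, among peaks found in all 3 replicates or in replicates 2 and 3, and against the flank on the TSS side. With 50 bp to each side the Su(Hw) core passed with 11 summits and no flank, so no ratio can be given. Words higher numbered 4 and 29 with the outer limit at 3000 and 10000 bp, 3 in the stronger 3313, 5 among peaks found in all 3 replicates, 7 among those found in replicates 2 and 3, and 0 and 28 with 50 and 200 bp to each side. Words lower numbered, for the settings that moved them, 8 and 2 with the inner limit at 250 and 1000 bp, 0 and 13 with the outer limit at 3000 and 10000 bp, 2 outside all annotated genes, 0 in the stronger 3313 and in those found by all replicates, 3 in peaks found in replicates 2 and 3, 0 and 8 with 50 and 200 bp to each side, and 2 with the TSS-side flank. Between 0 and 13 of the 16 words also passed under another setting. Class contrasts that passed numbered 11 with the inner limit at 250 bp, 3 with the outer limit at 3000 bp, and 1 in the stronger 3313 as well as in peaks found in every replicate.

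The share at noncoding genes was 20.1% and 24.4% with the inner limit at 250 and 1000 bp, 20.6% and 20.2% with the outer limit at 3000 and 10000 bp, and 19.3% and 26.5% with starts within 250 and 1000 bp. The share with a promoter summit at the nearest gene was 22.99% and 39.1% with the inner limit at 250 and 1000 bp, 22.8% in the stronger 3313, 22.1% among peaks found in all 3 replicates and 23.4% among those found in replicates 2 and 3. Genes of the 17 lists nearest to a summit numbered 58, and 33 in the stronger 3313 and 29 among peaks found in all 3 replicates.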
